A study of Mus musculus with 8 samples.

Results

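The genes described here build the node of Ranvier and the axon segments beside it. They are 10 genes chosen by symbol, Nfasc, Cntn1, Cntn2, Cntnap1, Cntnap2, Ank3, Sptbn4, Kcna1, Kcna2 and Scn8a, out of 41128 listed in a table of raw read counts. All 10 were found once in that table, and all 10 passed the filter on low counts that left 15771 genes for testing. The RNA came from dissected corpus callosum. All mice were of the PLP-150Q strain, where a myelin gene's promoter, active in oligodendrocytes, drives a mutant huntingtin fragment as a model of Huntington's disease. The mice of both groups carried this transgene, began treatment at 3 months of age and were 5 months old at collection, after 2 months of LAQ at 5 mg/kg (4 libraries, numbered 5 to 8) or of vehicle, which was purified water (4 libraries, numbered 1 to 4). The label LAQ was taken to mean laquinimod, an immune-modulating drug. No group without the transgene was analysed here, so the values compare treated with untreated carriers only. The labels do not tie each library to its own mouse, and if some shared one, the p-values reflect no more than the variation among the sequenced samples, part of which may be technical.

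At a node of Ranvier the myelin sheath is interrupted and the axon membrane holds a dense cluster of sodium channels, anchored through ankyrin-G to a spectrin lattice. On either side lies the paranode, where the axonal pair Cntn1 and Caspr (Cntnap1) meets the glial form of neurofascin and seals the edge of the myelin. Beyond it, under the compact myelin, the juxtaparanode collects potassium channels held by Caspr2 (Cntnap2) and Cntn2. Neurons make most of these proteins in cell bodies that lie outside the white matter, whereas oligodendrocytes make the glial neurofascin and part of the Cntn2. In the corpus callosum such domains let impulses travel quickly between the hemispheres.

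The 8 libraries held 8790749 to 12021429 counted reads, so the lowest count of any of the 10 genes was 290 (Cntnap1) and the highest 4860 (Cntn1). At 290 reads, counting alone gives an error of 5.87% of the value. Within groups, no pair of libraries agreed within sampling noise, and the LAQ library 7 stood apart from the other LAQ libraries, with a chi-square divided by its degrees of freedom at 16.1 to 25.6 against 7.87 to 8.93 among those. The myelin marker Mbp (6391 to 8887 CPM, counts scaled to library size) was abundant in every library. RNA of neuronal cell bodies was there as well, with Snap25 at 2181 to 3032 CPM and the cortical marker Slc17a7 at 459 to 1228 CPM. Prx, a marker of peripheral myelin, was at 0 to 0.86 CPM. In such bulk RNA, fewer cells of a type and less RNA per cell cannot be told apart.

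None of the 10 genes passed the test of LAQ against control. By edgeR's quasi-likelihood test the smallest adjusted p among them was 0.451 (Sptbn4), and 5 had a positive and 5 a negative log2 fold change. In none of the 10 did the LAQ libraries lie wholly above or below the control libraries, which 6.39% of all tested genes did, and 0 of 10 had an unadjusted p under 0.05 beside 11.1% of all tested genes. Over all 15771 genes 0 passed the adjusted threshold of 0.05 (0% called), so the members' count of 0 does not set them apart. DESeq2 called 129 genes (0.845%), and edgeR without LAQ 7 called 339 (2.13%), and neither called any of the 10. Of the other fits, none called a member either, while they called 353 genes (2.24%) with the oligodendrocyte marker score as a covariate, 140 (0.888%) with the neuron score, 25 (0.159%) with 1 surrogate variable, 22 (0.139%) with the striatal score, 62 (0.386%) without LAQ 5 and 7, 25 (0.0993%) with no expression filter, 1 (0.00634%) by voom with sample weights and 0 in the rest. The oligodendrocyte score, a mean z value, ran from -0.98 to -0.29 in control and from -0.32 to 1.68 in LAQ. It thus shares part of its variation with the group, and fits with it cannot fully separate the 2. The median log2 fold change was -0.03 over the 10 genes and -0.00 over all genes tested. The median size of the change regardless of sign was 0.07 for the 10 genes and 0.09 for the 6534 genes at least as abundant as the lowest of them. The 95% intervals of the log2 fold changes ran from -0.44 (the lower end for Sptbn4) to 0.33 (the upper end for Cntn2), which is 0.736-fold to 1.26-fold. Larger changes in either direction lie outside the intervals of all 10 genes. Single intervals were narrower, such as -0.13 to 0.15 for Nfasc. For each gene, only changes within its own interval could not be told from the spread between libraries.

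**Figure D1:**
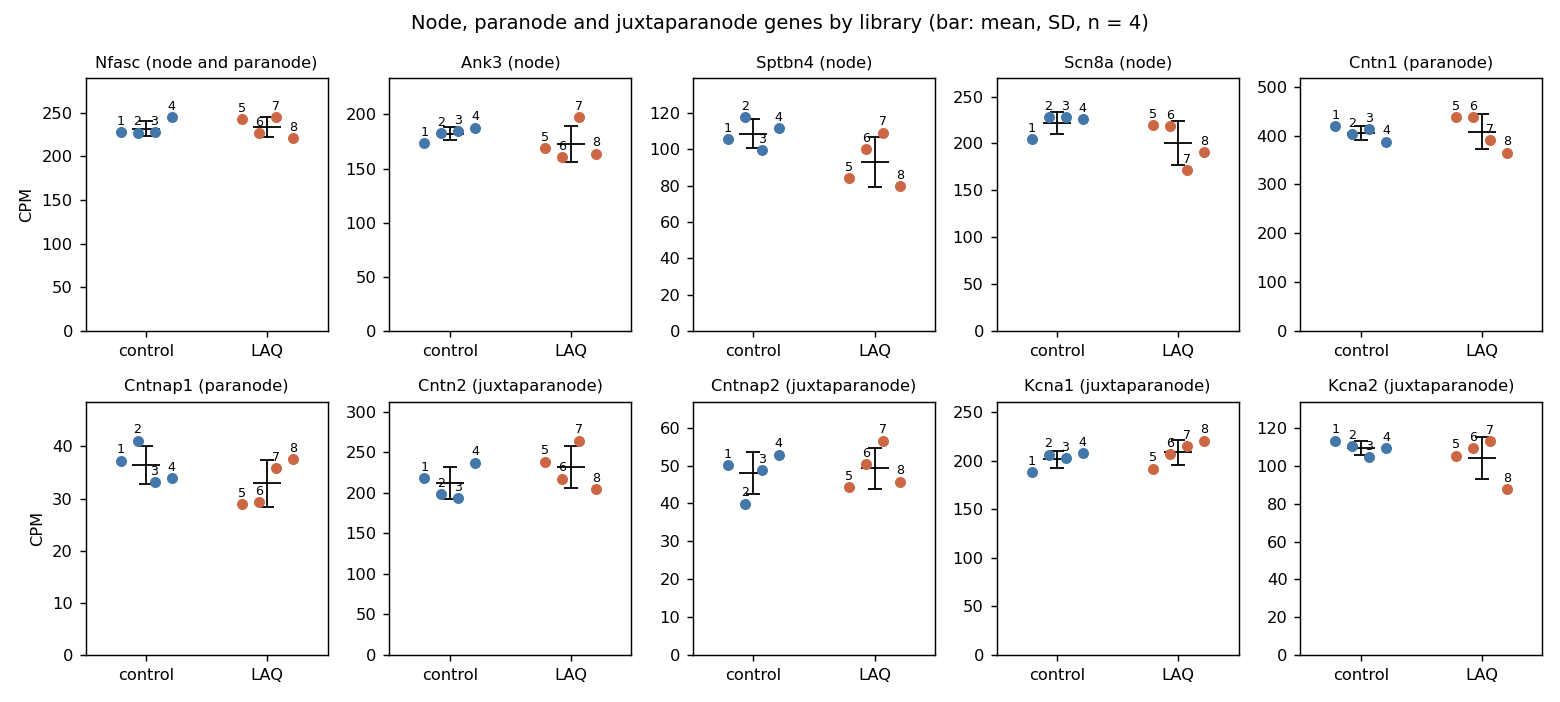
Each panel shows 1 gene, with CPM on the vertical axis (from 0) and the 4 control (blue) and 4 LAQ (orange) libraries marked by number; the bar and whiskers are mean and SD. The groups overlap in all 10 panels, and the widest gap between group means relative to their spread is that of Sptbn4, 109 against 93.3 CPM.

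The 4 genes of the node itself showed the lowest fold change of the set and one of the most even profiles. Sptbn4 encodes beta-IV spectrin, the cytoskeletal protein that holds ankyrin-G and the channels in place. It lies on chromosome 7 from 27356383 to 27447686 (GRCm38, GENCODE M21, minus strand). Sptbn4 stood at 106, 118, 99.4 and 112 CPM in control 1 to 4 and at 84.2, 100.04, 109 and 79.7 CPM in LAQ 5 to 8. LAQ 5 and LAQ 8 lay below every control library, while LAQ 6 and LAQ 7 lay within the control range. The means were 109 ± 7.91 and 93.3 ± 13.8 CPM (SD, n = 4 each), and the fit put the log2 fold change at -0.22 ± 0.10 (SE) with an edgeR adjusted p of 0.451 (unadjusted 0.0522). Without LAQ 7 the change was -0.30 ± 0.09 and the edgeR adjusted p 0.0883, the lowest that any of the 10 genes reached in 22 alternative fits. All 22 gave Sptbn4 a negative value, from -0.33 to -0.15. Its exons share 243 bases with the opposite-strand transcript Gm44924 and 134 with Gm20479, 2.54% and 1.40% of its exon length, where Gm20479 lies on the same strand. Reads in the bases shared with Gm44924 cannot be assigned without the strand setting, and those shared with Gm20479 cannot be assigned by strand at all.

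Scn8a encodes the sodium channel subunit that is concentrated at mature nodes (chromosome 15, 100869858 to 101045938, plus strand). It stood at 205, 228, 228 and 226 CPM in control 1 to 4 and at 220, 219, 172 and 190 CPM in LAQ 5 to 8. LAQ 7 and LAQ 8 were the only libraries below control 1, and LAQ 7 was the lowest of all 8. Scn8a had a log2 fold change of -0.15 ± 0.09 (SE; edgeR adjusted p = 0.546), which was -0.08 without LAQ 7. In that library the summed CPM of 8 cortical excitatory neuron markers was 2167, against 3196 to 3762 in control and 3306 to 3749 in the other LAQ libraries. LAQ 8, also below every control library for Scn8a, had a sum of 3306, within the control range. The cause of the Scn8a profile was not tested. With the oligodendrocyte marker score as a covariate, the Scn8a value was 0.06, the only positive one among the 22 alternative fits. It was -0.24 with the thalamic score (edgeR adjusted p = 0.699), -0.22 with 1 surrogate variable (edgeR adjusted p = 0.157) and -0.18 with the striatal score (edgeR adjusted p = 0.302).

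Ank3 encodes ankyrin-G, the adaptor between the nodal membrane proteins and the spectrin (chromosome 10, 69398773 to 70027438, plus strand). Its levels were 174, 183, 184 and 188 CPM in control and 169, 161, 197 and 164 CPM in LAQ. LAQ 5, 6 and 8 lay below every control library and LAQ 7 above every one. The log2 fold change was -0.08 ± 0.08 (SE; edgeR adjusted p = 0.755), and -0.15 ± 0.06 without LAQ 7 (edgeR adjusted p = 0.207). The annotation lists 47 Ank3 transcripts, and a count per gene does not separate the giant neuronal forms from the shorter ones.

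Nfasc encodes neurofascin, whose neuronal form sits in the nodal membrane and whose glial form sits on the paranodal loops (chromosome 1, 132564690 to 132741797, minus strand). Counts per gene merge both forms. Nfasc stood at 227, 227, 227 and 245 CPM in control and at 243, 226, 245 and 221 CPM in LAQ. Control 4 and LAQ 5 and 7 were high and the other 5 close together. The fitted log2 fold change was 0.01 ± 0.06 (SE; edgeR adjusted p = 0.966), with a 95% interval of -0.13 to 0.15. It had the lowest spread within groups among the 10 genes, an SD of 0.06 on the log2 CPM scale. The median was 0.12 over the 6534 genes at least as abundant as the lowest of the 10. That set reaches down to a mean log2 CPM of 5.12, below the 7.86 of Nfasc, so it is not matched to the level of Nfasc. The sign was not stable, with 17 of 22 alternative fits positive.

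**Figure D2:**
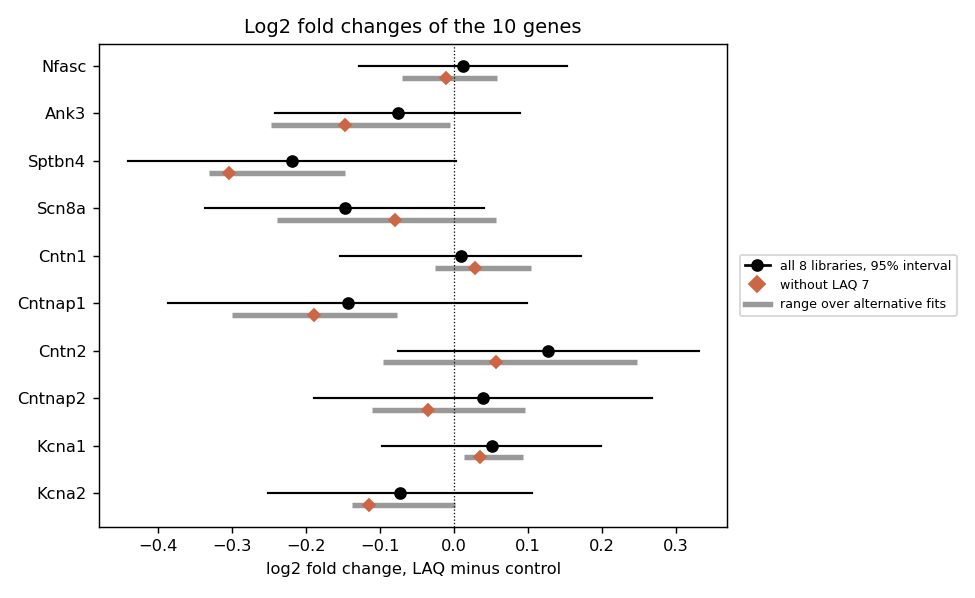
Log2 fold changes (LAQ minus control) are on the horizontal axis, 1 gene per line; black points and lines give the value and 95% interval from all 8 libraries, orange diamonds the value without LAQ 7, and grey bars the range over the 22 alternative fits. All 10 black lines cross 0, and the black point farthest from 0 is that of Sptbn4 at -0.22.

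The paranodal pair on the axon gave values on both sides of 0. Cntn1, a contactin anchored in the axon membrane by a lipid tail, lies on chromosome 15 from 92051165 to 92341967 (plus strand). It stood at 419, 403, 413 and 387 CPM in control and at 438, 437, 391 and 365 CPM in LAQ. LAQ 5 and LAQ 6 exceeded every control library and LAQ 8 fell short of every one, so the LAQ libraries lay on both sides of the control range. The log2 fold change was 0.01 ± 0.07 (SE; edgeR adjusted p = 0.981).

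Cntnap1 encodes Caspr, the partner without which Cntn1 does not reach the paranode (chromosome 11, 101170523 to 101190724, plus strand). It was the gene with the lowest counts, at 37.3, 41.1, 33.2 and 33.9 CPM in control and 28.9, 29.3, 35.9 and 37.5 CPM in LAQ. LAQ 5 and LAQ 6 were below every control library, and LAQ 7 and LAQ 8 were within the control range. The log2 fold change was -0.14 ± 0.11 (SE; edgeR adjusted p = 0.667), negative in all 22 alternative fits, from -0.30 to -0.08. The LAQ libraries that were low for Cntnap1 were those that were high for Cntn1. Its exons share 233 bases, 3.97% of their length, with Plekhh3 on the opposite strand.

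Among the juxtaparanodal genes, Cntn2 gave the highest fold change of the set, and it too did not pass the test. Cntn2 encodes a contactin made by both neurons and oligodendrocytes (chromosome 1, 132509427 to 132543256, minus strand). Its levels were 218, 199, 193 and 237 CPM in control and 239, 218, 264 and 205 CPM in LAQ. LAQ 5 and LAQ 7 lay above every control library. The log2 fold change was 0.13 ± 0.09 (SE; edgeR adjusted p = 0.645), or 0.06 without LAQ 7. The summed CPM of 11 mature oligodendrocyte markers was likewise highest in LAQ 7, at 16480. It ran from 12562 to 14839 in the other LAQ libraries and from 11900 to 13611 in control. Summed striatal markers (3546 CPM) were also highest in LAQ 7, and summed neuron markers (4613 CPM) lowest. The sum of the inhibitory interneuron list was highest there too (1170 CPM), with Gad1 at 611 CPM and Gad2 at 282 CPM. The other genes of that list, Pvalb, Sst, Vip, Lhx6 and Kcnc1, were each highest in a control library. The cause of the Cntn2 profile was not tested. With the oligodendrocyte score as a covariate, the Cntn2 value turned to -0.10 (edgeR adjusted p = 0.671), the lowest of the 22 alternative fits. The highest was 0.25 with the thalamic score.

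Cntnap2 encodes Caspr2, the axonal partner of Cntn2 (chromosome 6, 45059357 to 47304213, plus strand). It stood at 50.1, 40.0, 48.9 and 52.9 CPM in control and at 44.4, 50.4, 56.6 and 45.8 CPM in LAQ. Control 2 was the lowest and LAQ 7 the highest library, and the other 6 were mixed. For Cntnap2 the log2 fold change was 0.04 ± 0.10 (SE; edgeR adjusted p = 0.924), but -0.03 without control 2 and -0.04 without LAQ 7.

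The potassium channel subunits Kcna1 and Kcna2 assemble together in the juxtaparanodal membrane. Kcna1 (chromosome 6, 126640397 to 126646384, minus strand) stood at 188, 206, 203 and 208 CPM in control and at 192, 207, 215 and 221 CPM in LAQ. LAQ 7 and LAQ 8 were highest and control 1 lowest. The log2 fold change of 0.05 ± 0.07 (SE; edgeR adjusted p = 0.827) was positive in all 22 alternative fits, from 0.01 to 0.09. Kcna2 (chromosome 3, 107101146 to 107115005, plus strand) stood at 113, 110.4, 105 and 109.6 CPM in control and at 106, 109, 113 and 88.0 CPM in LAQ. All LAQ libraries but LAQ 8 were within the control range, and without LAQ 8 the log2 fold change of Kcna2 was 0.0016 in place of -0.07 ± 0.08 (SE; edgeR adjusted p = 0.785).

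Whether 2 related genes differed in their response was tested within libraries, by the difference of their log2 CPM. This difference is not corrected for length, so only its change between the groups is read. Cntn2 minus Cntn1 averaged -0.94 ± 0.17 in control and -0.82 ± 0.19 in LAQ (SD, n = 4 each), a shift of 0.12 with an exact two-sided permutation p of 0.371. Cntnap2 minus Cntnap1 averaged 0.39 ± 0.30 and 0.58 ± 0.21, a shift of 0.19 (exact permutation p = 0.400, n = 4 each), and the shift was 0.04 without control 2. Kcna2 minus Kcna1 averaged -0.88 ± 0.10 and -1.01 ± 0.21, a shift of -0.13 (exact permutation p = 0.457, n = 4 each), or -0.02 without LAQ 8. Adjusted over the 3 pairs, each exact p was 0.457, where the smallest raw p the design can give is 0.0286. Thus no pair of relatives was shown to respond differently, and shifts as large as these could not be told from the spread between libraries.

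Per length, the paranodal Cntn1 and the juxtaparanodal Kcna1 were the most abundant of the 10. In control, Cntn1 stood at 43.0 ± 1.46 CPM per kilobase of annotated exon and Kcna1 at 42.2 ± 1.86 (SD, n = 4 each), and their ranges overlapped. Below them came Cntn2 at 22.8 ± 2.14, Nfasc at 16.4 ± 0.62, Scn8a at 14.1 ± 0.72 and Sptbn4 at 11.4 ± 0.83 CPM per kilobase. Each of these 4 was separated from the next gene in the order by ranges that did not overlap in control. Kcna2 (9.20 ± 0.31) and Cntnap1 (6.19 ± 0.62) followed, also without overlap with their neighbours. Ank3 (5.23 ± 0.17) and Cntnap2 (4.68 ± 0.54) were lowest, and their ranges overlapped. Partners were thus present at unequal levels in the pooled RNA, with Cntn1 far above Cntnap1 and Cntn2 far above Cntnap2. The place of Ank3 and the closeness of Cntn1 and Kcna1 depend on the length used. Per kilobase of the longest coding transcript in place of the union of exons (9963 against 34838 bases), Ank3 stood at 18.3 CPM in control and moved from place 9 to place 6. In LAQ the order by exon union was the same apart from Cntn1 and Kcna1, which changed places.

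**Figure D3:**
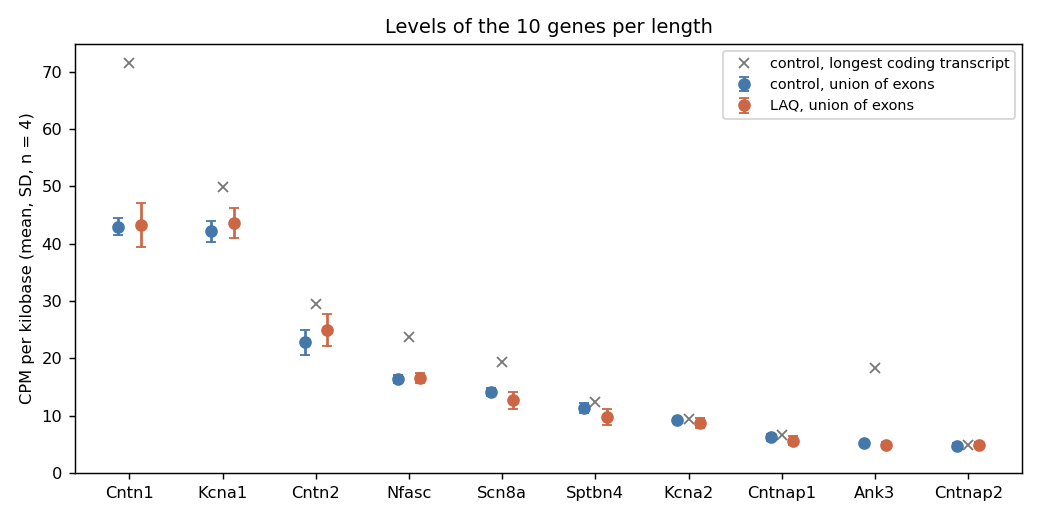
CPM per kilobase is on the vertical axis (from 0) for each gene, with mean and SD over 4 control (blue) and 4 LAQ (orange) libraries by the union of exons; grey crosses give the control mean by the longest coding transcript. Cntn1 and Kcna1 stand at 43.0 and 42.2 in control, and the cross of Ank3 at 18.3 stands far above its point at 5.23.

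The 10 genes did not vary as a block across the 8 libraries. LAQ 8 was the lowest library for 4 of them (Nfasc, Cntn1, Sptbn4 and Kcna2) and the highest for Kcna1. LAQ 7 was the highest for Cntn2, Cntnap2 and Ank3 and the lowest for Scn8a. As a description over 8 libraries that share their group structure and their mix of cells, each gene's log2 CPM was set against that of the others. Nfasc and Cntn2 ran most alike of all pairs (Pearson r = 0.85), followed by Sptbn4 and Kcna2 (r = 0.80) and by Ank3 and Sptbn4 (r = 0.67). Cntn1 and Kcna1 ran most opposite (r = -0.75), with Cntn1 and Cntnap1 next (r = -0.65). The paranodal partners Cntn1 and Cntnap1 therefore did not rise and dip together in these libraries. Among 9067 other genes with an established symbol and a mean log2 CPM of at least 4, the closest profile to Cntn2 was that of Klhl15 (r = 0.99) and the closest to Kcna2 that of Tmem184b (r = 0.98). Sptbn4 ran closest to Kif5a (r = 0.98), a kinesin heavy chain of axonal transport, Ank3 to Dusp11 (r = 0.97), Scn8a to Ncoa7 (r = 0.97) and Nfasc to Tprn (r = 0.97). The closest genes were Trnp1 for Cntnap1 and Tmem29 for Cntnap2 (r = 0.95 each), Zmat4 for Cntn1 (r = 0.95) and Cntd1 for Kcna1 (r = 0.93). Being the best of so many candidates over so few libraries, these values are descriptions only.

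**Figure D4:**
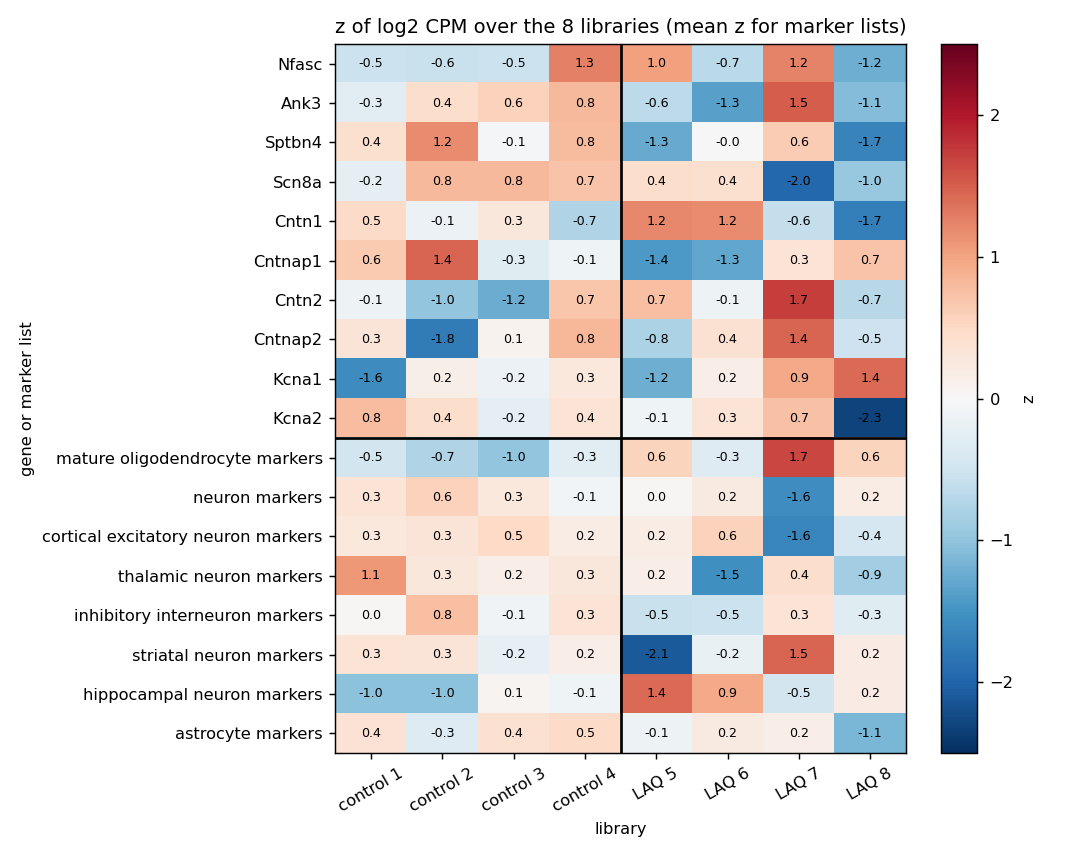
Each row is 1 gene (top) or the mean over a marker list (bottom), each column 1 library, and the colour and number give the z value of log2 CPM over the 8 libraries. LAQ 7 is highest for Cntn2, Cntnap2, Ank3 and the oligodendrocyte markers and lowest for Scn8a and the neuron markers, while LAQ 8 is lowest for 4 of the 10 genes.

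The 2 genes that ran most alike are neighbours in the genome. By coordinate on chromosome 1, the annotated span of Cntn2 ends 21433 bases before that of Nfasc begins. Both are read from the minus strand, so in the direction of reading Nfasc comes first and Cntn2 follows. The RefSeq table (GRCm38.p6) held a start window for 7 of the 10 genes, and the 250 bases before a RefSeq start are shown for the 2 pairs with the closest profiles. Capitals mark GGGCGG (the GC box) on either strand. The 4 windows lie at chr1:132542941-132543190 and chr1:132707327-132707576 (both minus strand), chr7:27446590-27446839 (minus strand) and chr3:107101317-107101566 (plus strand).
Cntn2: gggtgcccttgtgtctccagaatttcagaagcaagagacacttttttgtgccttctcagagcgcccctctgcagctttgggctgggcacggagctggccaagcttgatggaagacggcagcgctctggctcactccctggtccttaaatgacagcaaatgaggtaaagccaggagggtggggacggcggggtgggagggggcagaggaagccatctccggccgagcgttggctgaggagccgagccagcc
Nfasc: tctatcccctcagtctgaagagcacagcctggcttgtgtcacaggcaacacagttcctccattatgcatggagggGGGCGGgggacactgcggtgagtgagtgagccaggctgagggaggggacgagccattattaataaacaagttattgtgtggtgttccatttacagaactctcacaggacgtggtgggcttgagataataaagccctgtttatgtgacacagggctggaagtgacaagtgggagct
Sptbn4: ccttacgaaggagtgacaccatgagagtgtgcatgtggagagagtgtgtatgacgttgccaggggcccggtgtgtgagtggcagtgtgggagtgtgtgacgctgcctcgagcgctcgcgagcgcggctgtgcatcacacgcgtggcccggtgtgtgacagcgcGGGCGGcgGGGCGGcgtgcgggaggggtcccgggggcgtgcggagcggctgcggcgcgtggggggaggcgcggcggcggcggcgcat
Kcna2: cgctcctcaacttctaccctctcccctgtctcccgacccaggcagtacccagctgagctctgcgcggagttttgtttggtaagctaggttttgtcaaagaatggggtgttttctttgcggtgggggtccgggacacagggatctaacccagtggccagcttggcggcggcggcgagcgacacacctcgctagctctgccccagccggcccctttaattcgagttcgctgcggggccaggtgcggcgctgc
The GC box was present once in the Nfasc window and in 2 copies in the Sptbn4 window, and 32.7% of the 32851 windows of this length in the table held it. ACAAAG, the core letters bound by SOX factors, and TATAAA were also searched on both strands, and neither was found in these 4 windows, where 16.5% and 12.4% of all windows held them. Nfasc and Sptbn4 have more than 1 start window in the table, and the first listed is shown. All 4 windows lie inside the GENCODE span of their gene, so these starts are internal to that annotation. They lie 316 bases (Cntn2), 421 (Kcna2), 1097 (Sptbn4) and 34471 (Nfasc) from its outermost 5′ end. For Cntn2, none of the GENCODE transcripts held the 50 bases after the start. The shares of G and C were 61.2% for Cntn2, 52.0% for Nfasc, 72.0% for Sptbn4 and 62.4% for Kcna2, beside a median of 52.4% over all windows. Neither pair shared the letters searched, and a match here describes the sequence only.

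Of the other genes of these domains, grouped in 4 lists, 0 passed edgeR's test over all genes, and by unadjusted p 4.77% of all tested genes were higher and 6.33% lower under 0.05. The lists were chosen with earlier results of these data known. Their counts therefore describe the lists and are no test against these shares. Of 13 further genes of the nodal membrane and scaffold, 1 was higher and 3 were lower at an unadjusted p under 0.05, and 2 were lower without overlap between the groups, a state that held for 2.78% of all tested genes on the higher side and 3.61% on the lower. Scn1a, a sodium channel subunit used by inhibitory neurons and at some nodes, stood at 116, 97.0, 106 and 112 CPM in control and 84.4, 88.1, 96.1 and 82.3 CPM in LAQ. Every LAQ library of Scn1a was below every control library, with a log2 fold change of -0.30 ± 0.08 (SE; edgeR adjusted p = 0.228). The edgeR adjusted p of Scn1a was 0.0395 without LAQ 7, and it passed in 2 of 22 alternative fits. Kcnq3, a subunit of the nodal M-type potassium channel, averaged 51.0 ± 1.23 CPM in control and 42.9 ± 4.77 in LAQ without overlap (log2 fold change -0.25). Kcnk4, a mechanically gated potassium channel of nodes, averaged 13.5 ± 1.21 and 9.84 ± 2.20 CPM, a log2 fold change of -0.46. Scn3b, an accessory sodium channel subunit, averaged 159 ± 43.5 and 227 ± 71.2 CPM, a log2 fold change of 0.51 (edgeR adjusted p = 0.434). It was 0.23 with the thalamic marker score as covariate, and 1.21 with the oligodendrocyte score, where the edgeR adjusted p was 0.0188. Scn3b was highest in LAQ 5 and LAQ 6, at 283 and 288 CPM. The summed CPM of 6 hippocampal neuron markers was also highest in these libraries, at 694 and 573, and ran from 342 to 485 in control and from 484 to 501 in the other LAQ libraries. All 6 had a positive log2 fold change (median 0.85, 4 with an unadjusted edgeR p under 0.05), and 6 of 7 thalamic markers a negative one (median -0.49). Summed, the thalamic markers ran from 283 to 416 CPM in control and from 179 to 321 CPM in LAQ. The part of the hippocampal markers in the Scn3b value was not tested.

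The nodal matrix list held 5 genes, of which 1 was lower and 0 were higher at an unadjusted p under 0.05. Ncan (neurocan, a proteoglycan) stood at 157 to 169 CPM in control and 136 to 156 CPM in LAQ, without overlap, with a log2 fold change of -0.18 ± 0.07 (SE; edgeR adjusted p = 0.360). Bcan (brevican) stood at a log2 fold change of -0.15, Vcan (versican) at 0.23 and Hapln2, the link protein of central nodes, at 0.13. Their groups overlapped, and without LAQ 7 Vcan stood at 0.12 and Hapln2 at 0.015.

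Of 10 paranodal and axoglial genes, 5 were higher and 2 lower at an unadjusted p under 0.05. The 5 (Cd9, Opalin, Mag, Ugt8a and Gal3st1) are made by oligodendrocytes. Cd9, a tetraspanin, averaged 127 ± 14.1 CPM in control and 157 ± 14.2 in LAQ (log2 fold change 0.30). Opalin, a sialylated glycoprotein of paranodal loops, averaged 63.8 ± 6.42 and 77.8 ± 5.76 CPM, a log2 fold change of 0.29. For both, edgeR's adjusted p was 0.278. All 11 mature oligodendrocyte markers had a positive log2 fold change as well (median 0.18, 5 with an unadjusted edgeR p under 0.05). For 3 of them every LAQ library was above every control library, while their summed CPM, given above, had overlapping ranges. Their score shares part of its variation with the group. With their score as a covariate the log2 fold change was 0.19 ± 0.13 for Cd9 (SE; edgeR adjusted p = 0.456) and 0.20 ± 0.13 for Opalin (edgeR adjusted p = 0.410). On the lower side, Sptbn1, the beta-II spectrin of the axonal cytoskeleton, stood at 549 to 599 CPM in control and 467 to 522 in LAQ without overlap (log2 fold change -0.18). Cadm4, a cell adhesion molecule of myelinating glia, averaged 133 ± 26.6 and 99.0 ± 16.1 CPM (log2 fold change -0.43).

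Of 10 further juxtaparanodal genes, 1 was higher and 2 lower at an unadjusted p under 0.05. Dlg4, a scaffold shared by juxtaparanodes and synapses, averaged 51.7 ± 3.64 CPM in control and 40.0 ± 4.65 in LAQ without overlap, a log2 fold change of -0.37 ± 0.09 (SE; edgeR adjusted p = 0.221). Its relative Dlg2 stood at -0.26 with an edgeR adjusted p of 0.390, which was 0.0412 without LAQ 7, and Adam23, a receptor for secreted Lgi proteins, stood at -0.17. Kcnab1, a beta subunit of these potassium channels, stood at 174 to 195 CPM in control and 181 to 304 CPM in LAQ, and the log2 fold change was 0.33. LAQ 7 was the highest library of Kcnab1, and its log2 fold change was 0.17 without it. The scaffold and channel genes of this list also serve synapses, so their counts are not specific to axons. The median log2 fold change was -0.00 for the nodal membrane list, 0.13 for the matrix, 0.08 for the paranodal and -0.13 for the juxtaparanodal list, beside -0.00 for all genes tested.

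**Figure D5:**
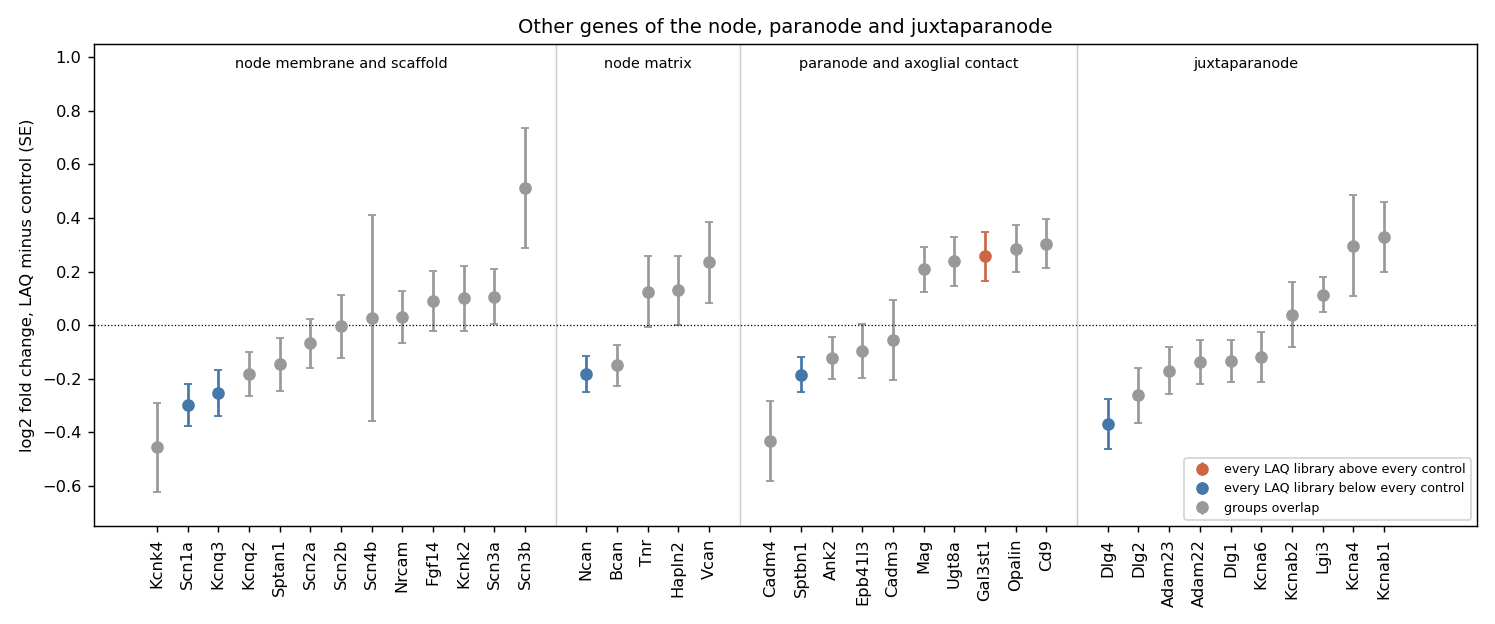
Log2 fold changes (LAQ minus control, vertical axis, with SE) of the other genes in 4 lists; orange marks every LAQ library above every control library, blue every one below, and grey overlapping groups. Among them 1 is orange (Gal3st1) and 5 are blue (Scn1a, Kcnq3, Ncan, Sptbn1 and Dlg4), and Scn4b has the widest error.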

How the data were processed

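Poly(A) RNA of 8 libraries was counted per gene symbol, and the authors deposited raw counts and a normalized table, which was not used. Tools named in the submitters' processing notes are STAR 2.5.2b, HTSeq, bcl2fastq 2.17.1.14 and DESeq2 1.10.1, with the build GRCm38.p3. Annotation, strand setting and read filters are not given in the sources used here. Groups came from the sample titles, and 0 value columns of the count table were left unused.

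Genes were kept by filterByExpr (minimum count 10, total 15), scaled by TMM and tested with glmQLFTest of edgeR 4.0.16 (with limma 3.58.1 in R 4.3.3) over 15771 genes, two-sided, with Benjamini-Hochberg adjustment and a threshold of 0.05. The steps were tested on simulated data with changes larger than those of the 10 genes, which does not show how well smaller changes are found. CPM used TMM-scaled library sizes, log2 CPM a prior count of 2, and SE is the log2 fold change divided by the root of F. The 3 ratios used exact permutation over 70 assignments. Lengths, loci and overlaps came from GENCODE M21 (GRCm38), and promoters from RefSeq (GRCm38.p6). Alternatives changed normalization, filter, test (DESeq2 1.42.0, voom), covariates (marker scores, or 1 surrogate variable from sva 3.50.0), threshold, libraries, prior count and length. Named genes were the 10 members, up to 4 of smallest p per other list, and each member's closest profile. The members and lists were chosen with earlier results of these data known, and Scn4b, Mag, Ugt8a and Gal3st1 were named after their values were seen. A few listed genes are not reported here. Figures used matplotlib 3.10.9.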

Additional observations from a re-analysis of the deposited data

Results flagged for a closer look

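In 26 groups of 4 libraries (10 genes and 3 ratios in each group), 3 held a library far from the other 3. For a single group chance gives about 1 in 20. The ratios reuse the values of the genes, so the 26 groups are not independent and their count shows no excess over that rate. Nfasc in control 4 stood at 245 CPM, and the other control libraries at 227.2 to 227.4 CPM. Scn8a in control 1 stood at 205 CPM, and the other control libraries at 226 to 228 CPM. The log2 ratio of Kcna2 to Kcna1 in LAQ 8 was -1.33, and it was -0.93 to -0.86 in the other LAQ libraries.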

How the results depend on the processing

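No paired analysis was possible because the groups share no replicate numbers. None of the 10 genes was called at 0.05 in any of the 22 alternative fits, or at a threshold of 0.1 in the fit to all libraries, and their lowest adjusted p was 0.0883 (Sptbn4, edgeR without LAQ 7). Over all genes, 129 were called by DESeq2, 25 with no expression filter, 1 by voom with sample weights, 25 with 1 surrogate variable, 353 with the oligodendrocyte score, 140 with the neuron score, 62 without LAQ 5 and 7, and 22 with the striatal score, an alternative chosen after seeing the data. Leaving out 1 library gave 0 to 339 genes, all 339 of them without LAQ 7. The median log2 fold change of the 10 genes moved beyond the spread between libraries only with the oligodendrocyte score, to -0.10. Because this score shares part of its variation with the group, values fitted with it do not isolate the group difference. That score also turned Nfasc to -0.071, Cntn2 to -0.097, Cntnap2 to -0.11, Scn8a to 0.056 and Hapln2 to -0.13, and the neuron score turned Nfasc to -0.027, Cntnap2 to -0.068 and Hapln2 to -0.017. With 1 library left out, Nfasc ran from -0.011 (without LAQ 7) to 0.045 and was -0.0045 without LAQ 5, and Cntnap2 ran from -0.036 (without LAQ 7) to 0.096 and was -0.03 without control 2. Cntn1 ran from -0.026 (without LAQ 6) to 0.061, with -0.02 without LAQ 5 and -0.0071 without control 4. Kcna2 was 0.0016 without LAQ 8 and reached -0.139 without LAQ 5 and 7, where Nfasc stood at -0.044 and Cntn1 at -0.0060. Cntn1 was also -0.022 with 1 surrogate variable and -0.0095 with the striatal score. The cause was not tested. At the lowest count of each gene, counting error was 1.69% to 5.87% of the value.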

Other observations

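Scn4b, a sodium channel accessory subunit that striatal neurons make in quantity, had the widest spread of the nodal genes. It stood at 288 to 368 CPM in control and at 112, 285, 704 and 292 CPM in LAQ 5 to 8, a log2 fold change of 0.03 ± 0.38 (SE). The summed CPM of 7 striatal markers was likewise lowest in LAQ 5 (502) and highest in LAQ 7 (3546), and ran from 1405 to 1860 in control.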
